A study of Mus musculus with 66 samples.

Results

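The 37 genes described here copy DNA or drive mitosis, and their mRNA is mostly found in dividing cells. They were read in cultures of neurons, a cell type that has left the cell cycle. There they were taken as a measure of dividing cells left in the dish. Whether the mRNA of each gene came from dividing cells in these cultures was not tested. The genes were picked by symbol from a fixed list of replication and mitosis genes, with no measured value in the rule. Earlier results of these data were known when the genes and their lists were chosen. All 37 were found among the 30084 gene symbols of the count table, and all 37 were among the 16145 genes with enough counts to be tested. The study cultured neurons from wildtype E16.5 mouse embryos, kept male and female embryos apart, and infected the cultures with lentivirus coding for a short hairpin RNA (shRNA), a small RNA that lowers the mRNA it matches. The hairpins were directed at 1 of 9 genes (Med13l, Chd8, Setd5, Kdm6b, Tbr1, Ash1l, Dnmt3a, Kmt2c or Mbd5) or were nontargeting controls, and further cultures received no virus. The medium with virus was taken off at day 6 and RNA was collected at day 10 of culture. The dose was set to leave about 50% of the targeted mRNA by RT-qPCR, so the cultures model partial loss of each gene over a few days in all cells the virus entered. Poly(A) RNA was sequenced from 3 libraries for each of 22 groups (11 treatments in 2 sexes), 66 libraries in all.

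Cells license their replication origins in G1 by loading the ring-shaped MCM helicase, which the loaders Cdc6 and Cdt1 place on DNA and which GINS later helps to activate. During S phase the sliding clamp Pcna holds the polymerases on the template, and ribonucleotide reductase (Rrm1, Rrm2) and thymidylate synthase (Tyms) supply the nucleotides. E2F factors such as E2f1 drive the genes of this first wave, and the MYB-MuvB complex with Foxm1 drives a later wave of G2 and mitosis genes: cyclins A and B with Cdk1, the spindle and checkpoint kinases, kinetochore proteins and the APC/C that ends mitosis. In embryonic cortex, radial glia and intermediate progenitors divide and their neuronal daughters do not. Promoters of the first wave often carry E2F sites, and those of the second often carry a CHR element and CCAAT boxes.

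The promoters of 5 members whose levels changed are shown to let the first wave (Mcm2, Mcm6) be read beside the second (Top2a, Cdk1, Cenpe). Each is the 200 bases upstream of the annotated start that lie in no annotated exon, read in the direction of the gene from the RefSeq promoter table of GRCm38.p6, and capitals mark the motifs searched. The Mcm2 window is chr6:88898781-88898980 (minus strand), the Mcm6 window chr1:128359706-128359905 (minus strand), the Top2a window chr11:99024190-99024389 (minus strand), the Cdk1 window chr10:69352939-69353138 (minus strand) and the Cenpe window chr3:135212337-135212536 (plus strand).
Mcm2: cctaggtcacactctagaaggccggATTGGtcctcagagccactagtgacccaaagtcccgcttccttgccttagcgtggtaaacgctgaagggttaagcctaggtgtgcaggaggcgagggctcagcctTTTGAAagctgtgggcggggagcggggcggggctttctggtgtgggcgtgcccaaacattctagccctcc
Mcm6: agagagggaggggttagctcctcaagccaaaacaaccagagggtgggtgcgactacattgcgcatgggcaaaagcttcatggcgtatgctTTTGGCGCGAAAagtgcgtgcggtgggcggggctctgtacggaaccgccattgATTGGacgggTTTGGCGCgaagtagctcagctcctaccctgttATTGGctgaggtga
Top2a: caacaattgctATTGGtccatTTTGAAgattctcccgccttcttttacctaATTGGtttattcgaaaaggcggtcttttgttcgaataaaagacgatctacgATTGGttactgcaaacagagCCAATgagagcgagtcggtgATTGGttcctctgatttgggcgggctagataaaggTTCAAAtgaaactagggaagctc
Cdk1: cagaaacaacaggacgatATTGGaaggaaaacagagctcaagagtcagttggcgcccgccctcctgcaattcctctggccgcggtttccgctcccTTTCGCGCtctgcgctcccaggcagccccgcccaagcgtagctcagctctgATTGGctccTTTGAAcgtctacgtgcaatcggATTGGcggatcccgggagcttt
Cenpe: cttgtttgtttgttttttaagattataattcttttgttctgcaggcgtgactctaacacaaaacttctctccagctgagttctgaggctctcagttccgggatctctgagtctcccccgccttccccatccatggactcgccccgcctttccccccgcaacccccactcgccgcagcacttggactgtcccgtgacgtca
The motifs were E2F-like sites (TTTCCCGC, TTTGGCGC, TTTCGCGC or TTTGCCGC), CHR elements (TTTGAA or TTTAAA) and CCAAT boxes (CCAAT), each on both strands, with overlapping matches counted. Mcm6 held 3 E2F-like matches and 2 CCAAT boxes, whereas Mcm2 held 1 CHR match and 1 CCAAT box and no E2F-like match. Top2a held 2 CHR matches and 5 CCAAT boxes. Cdk1 held 1 E2F-like match, 1 CHR match and 3 CCAAT boxes, and the Cenpe window held none of these letters. The Cdk1 and Cenpe windows end 26 bases before the start. Over the 250 bases before its start, the Cenpe promoter did hold a CCAAT box, outside the window shown. A promoter was listed for 31 of the 37 members, not for Mcm4, Tpx2, Ccna2, Gins2, Foxm1 and Aurkb.

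Over the 250 bases before the start, an E2F-like match was present in 5 of the 31 promoters (16.1%; Cdc6, Cdk1, Mcm5, Mcm6 and Mcm7) against 1.91% of all 27025 promoters in the table. The matches lay in 4 of 11 replication promoters (36.4%) and in 1 of 16 mitotic promoters (6.25%). CHR matches were found in 2 of the 11 replication promoters (18.2%) and in 8 of the 16 mitotic ones (50.0%), against 25.5% of all promoters. CCAAT boxes were found in 24 of the 31 (77.4%), against 34.5% of all promoters, and were common in both the replication (72.7%) and the mitotic (81.2%) promoters. The matches describe the letters in these windows and were not measured as bound sites.

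Total counts ran from 13759741 to 66558546 per library. In the mean of the sexes all 9 targeted genes were lower than in nontargeting libraries, by 1.14 (Kdm6b) to 2.13 (Dnmt3a) on the log2 scale, and all 9 passed the test. Within 1 sex, Kdm6b did not pass in its own male (adjusted p = 0.0953) or female libraries (0.856), nor Setd5 in its male ones (0.402). In a pair of male libraries the targeted genes contradicted the labels. Setd5 male replicate 1, as labelled, held 141 CPM (counts scaled to library size) of Setd5, within the 133 to 149 CPM of male nontargeting libraries, and 23.1 CPM of Kdm6b, below their 55.1 to 64.9 CPM. The library labelled Kdm6b male replicate 1 held 44.9 CPM of Setd5 and 39.9 CPM of Kdm6b, beside 17.2 CPM of Kdm6b in each of the other 2 libraries of its group. The calls for these knockdowns are therefore given with and without both libraries. The labels describe triplicate wells and name no separate litters or cultures, so the p-values measure the spread between these samples, which may be technical.

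Neuronal markers dominated the cultures. The 9 neuron markers summed to 5779 to 6784 CPM in the 6 nontargeting libraries, against 179 to 488 CPM for 7 radial glia markers and 20.7 to 40.7 CPM for 4 intermediate progenitor markers. Markers of other types were present at lower levels. The 6 astrocyte markers, none at 0 counts in any of the 66 libraries, summed to 65.9 to 128 CPM in the nontargeting libraries, and 7 mural, fibroblast and endothelial markers to 20.7 to 52.1 CPM, with Cldn5 at 0 counts in 34 libraries and the other 6 at 0 in none. The 5 oligodendrocyte precursor markers summed to 10.7 to 12.98 CPM, with Sox10 at 0 counts in 52 libraries, Pdgfra in 1 and Olig1, Olig2 and Cspg4 in none. The 5 microglial markers summed to 0.945 to 2.48 CPM, with P2ry12, Tmem119 and Cx3cr1 at 0 counts in 46, 37 and 32 libraries, Csf1r in 1 and Aif1 in none. In bulk RNA, fewer dividing cells and less of an mRNA per cell cannot be told apart, and this holds for each result below.

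Most of the 37 genes were faintly expressed. Per kilobase of exon, the replication clamp Pcna was highest in nontargeting cultures, with a median of 18.6 CPM per kilobase (13.6 to 27.97 over 6 libraries), followed by the helicase subunit Mcm6 at 4.26 (3.26 to 4.66), the chromatin protein Hmgb2 at 4.20 (2.11 to 5.35), E2f1 at 3.73 (2.92 to 3.95) and Mcm7 at 3.12 (2.81 to 4.09). The ranges of Pcna and of each of these 4 genes did not overlap, and the ranges of Mcm6, Hmgb2, E2f1 and Mcm7 overlapped one another. The genes in common use as signs of cells in G2 and mitosis were far lower: Top2a, which untangles chromosomes, had a median of 0.254 CPM per kilobase, the mitotic kinase Cdk1 0.152, its partner cyclin Ccnb1 0.143, the proliferation antigen Mki67 0.0904 and the passenger kinase Aurkb 0.0422. Mcm2 lay between the groups at 1.17. In counts, Pcna had a median of 1573.5 per library (607 to 3712 over 66 libraries), Top2a 44, Mki67 24, Cdk1 18 and Ccnb1 14. The median CPM was under 1 for 11 members, and 7 members were at 0 counts in at least 1 library, Aurkb in 12. Pcna, Ccnb1, Ccnb2 and Tyms have annotated pseudogenes, and how reads that match several places were counted is not given in the sources used here, so their counts are less certain.

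**Figure D1:**
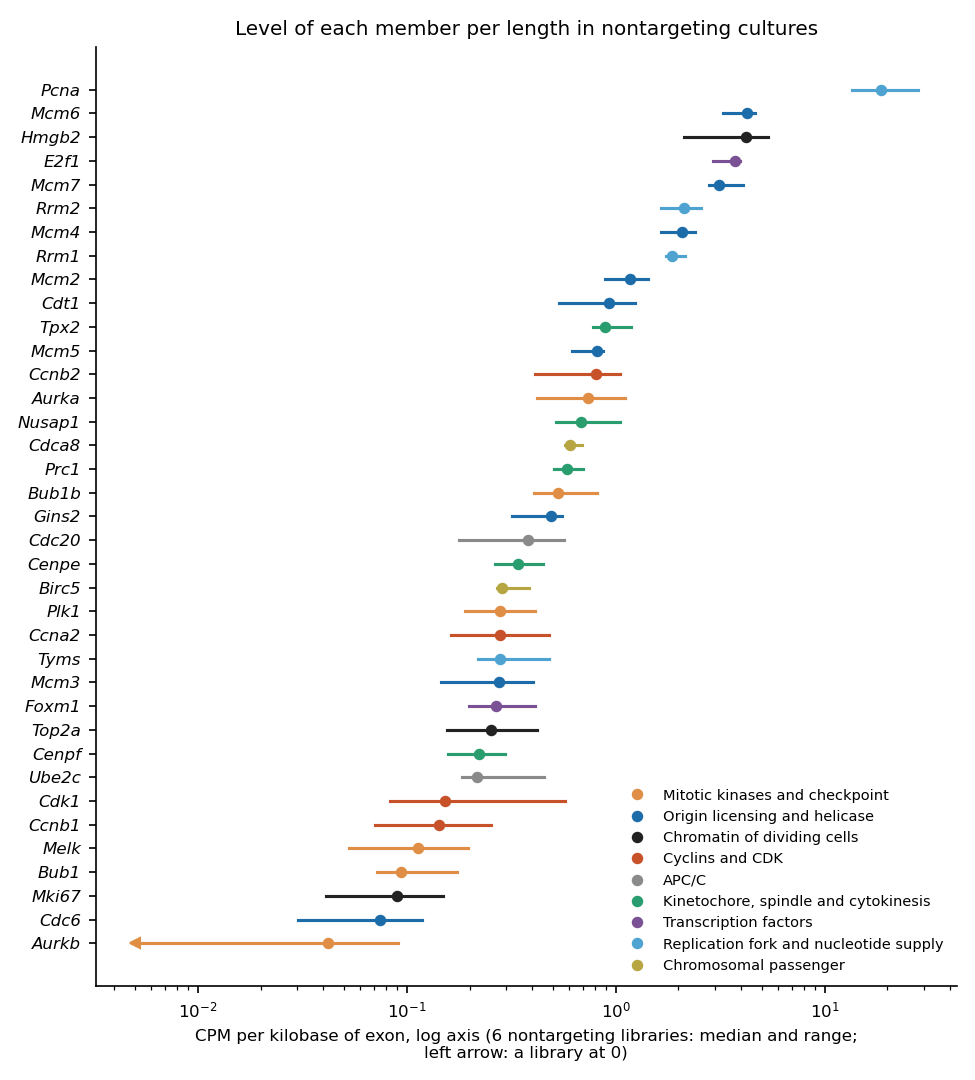
Level of each of the 37 genes in the 6 nontargeting libraries, in CPM per kilobase of exon on a log axis. Points are medians, bars run from the lowest to the highest library, and an arrow to the left marks a gene with a library at 0. Pcna stands alone at 18.6, and Mki67, Cdk1, Ccnb1 and Aurkb lie at the low end.

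Each knockdown was set against the nontargeting libraries of its own sex, and the male and female differences were averaged to give 1 value per target (mean of sexes). Over the 9 targets, 20 of the 37 genes passed the threshold (edgeR's quasi-likelihood test, adjusted p under 0.05 over all 16145 genes) at least once, in 31 calls. The calls were unevenly spread: 15 fell in the Med13l comparison, 6 in Chd8, 5 in Setd5, 2 in Kdm6b, 1 each in Ash1l, Dnmt3a and Tbr1, and none in Kmt2c and Mbd5. Mcm2 was called for 4 targets, higher in 2 and lower in 2, and Mcm6 for 3, higher in 1 and lower in 2. Top2a was lower in each of its 3 calls. All knockdowns share the same nontargeting libraries, so their values are set side by side and no likeness between them is drawn. Of the 31 calls, 19 held whichever single library was left out, and none changed direction under any alternative that was run.

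**Figure D2:**
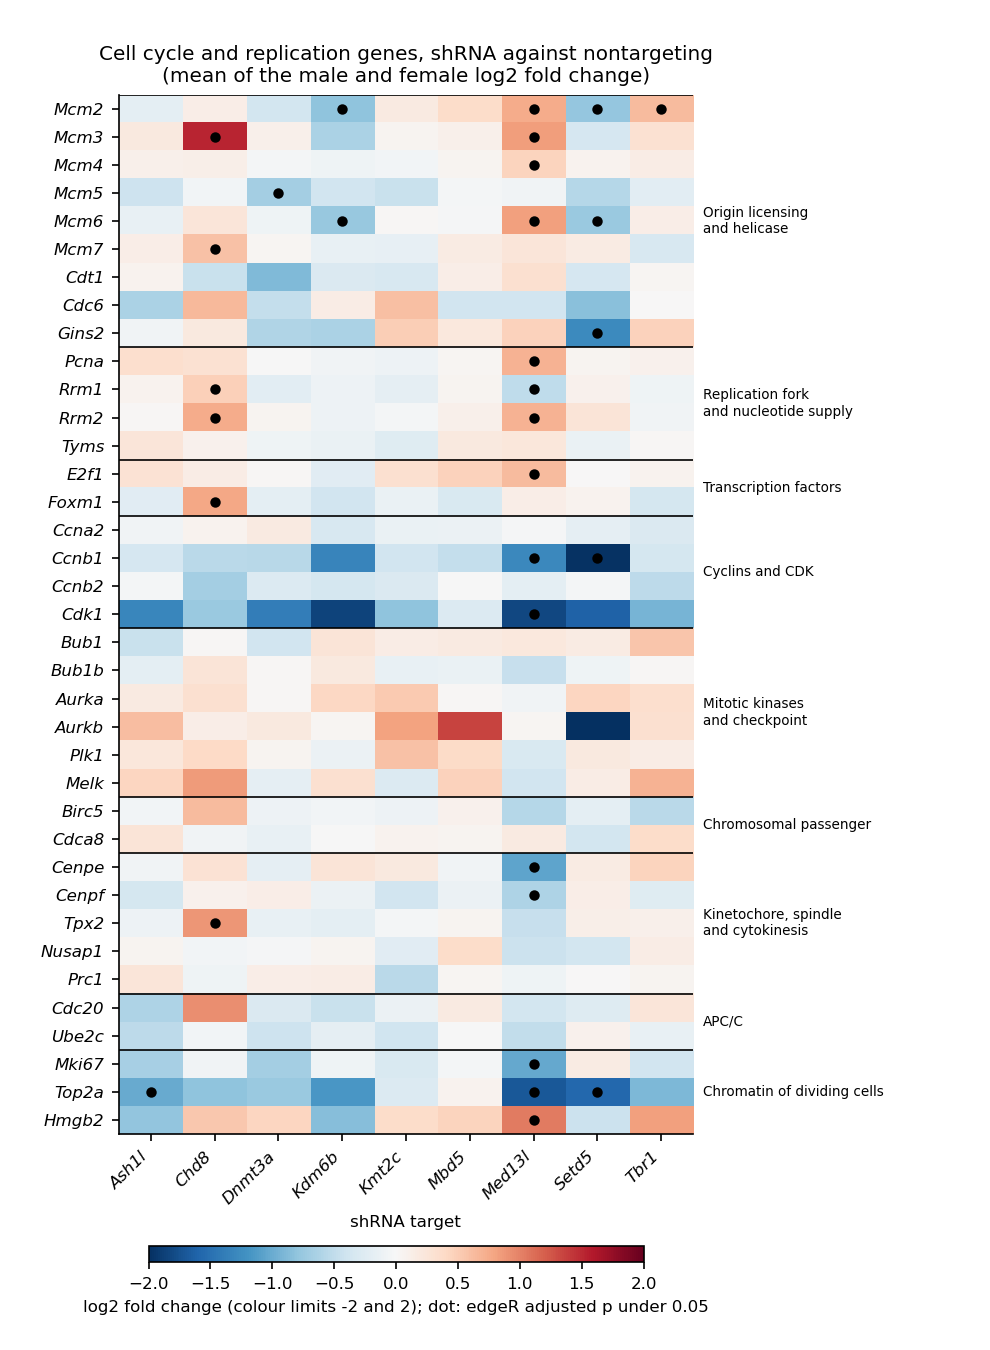
Log2 difference from nontargeting (mean of sexes) for 37 genes, grouped by role, and 9 targets. Blue to red runs from -2 to 2, and dots mark adjusted p under 0.05. The Med13l column holds 15 of the 31 dots, red in 6 replication rows, E2f1 and Hmgb2 and blue in Rrm1, Ccnb1, Cdk1, Cenpe, Cenpf, Mki67 and Top2a.

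Knockdown of Med13l, a subunit of the kinase module of Mediator, moved 15 of the 37 genes (8 higher and 7 lower), where 24.1% of all tested genes were called, 11.8% higher and 12.3% lower. Of the 13 replication genes 6 rose and 1 fell, with a median log2 difference of 0.44, and of the 19 mitotic genes 0 rose and 4 fell, with a median of -0.38. Over all 37 the median was -0.07, beside -0.01 over all genes. The other 4 calls were the factor E2f1 (higher) and 3 chromatin genes, Hmgb2 (higher), Top2a and Mki67 (both lower).

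Among the origin genes, the helicase subunit Mcm6 was at 35.7, 29.5 and 34.3 CPM in male and 39.1, 27.1 and 39.1 CPM in female Med13l libraries. In nontargeting libraries it was at 18.7, 20.6 and 19.96 CPM (male) and 21.8, 15.2 and 19.8 CPM (female). The Mcm6 gene spans chr1:128331590-128359664 (minus strand) and Mcm2 chr6:88883474-88898780 (minus strand), by the GENCODE M21 annotation of mm10. Every Med13l library lay above every nontargeting library, and the mean of Mcm6 rose from 19.3 ± 2.26 to 34.1 ± 4.95 CPM (SD, n = 6 each), a log2 difference of 0.82 ± 0.14 (SE; adjusted p = 9.27e-06). Its partner subunit Mcm2 was at 12.4, 14.0 and 15.6 CPM in male and 13.4, 10.9 and 13.0 CPM in female Med13l libraries, against 6.32, 8.28 and 8.56 CPM and 9.91, 6.18 and 7.99 CPM in nontargeting ones. These groups did not overlap either, and Mcm2 was 1.68-fold higher (log2 0.75 ± 0.13, adjusted p = 1.23e-05). The subunits Mcm3 (log2 0.84) and Mcm4 (0.44) also rose, so 4 of the 9 origin genes passed, with a median of 0.44 over the 9.

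At the replication fork, Pcna (chr2:132249162-132253314, minus strand) rose by a log2 difference of 0.69 ± 0.18 (adjusted p = 0.0041). It was at 72.6, 68.4 and 76.3 CPM in male and 112, 50.3 and 78.3 CPM in female Med13l libraries, against 43.0, 46.1 and 38.9 CPM and 67.1, 32.6 and 57.0 CPM in nontargeting ones. The male libraries were apart and the female ones overlapped, where replicate 2 was the lowest of both groups. The 2 subunits of ribonucleotide reductase moved in opposite directions. The small subunit Rrm2, which is made in S phase, rose by 0.70 ± 0.17 (adjusted p = 0.00226), and the large subunit Rrm1 fell by 0.51 ± 0.13 (adjusted p = 0.00208), and neither overlapped its controls. E2f1 was at 15.5, 11.5 and 23.9 CPM in male and 23.7, 11.9 and 18.4 CPM in female Med13l libraries, beside 9.93, 12.1 and 11.4 CPM and 12.2, 9.20 and 12.5 CPM in nontargeting ones. Its groups overlapped, and it rose by 0.64 ± 0.22 (adjusted p = 0.0307). Hmgb2, a DNA-bending protein abundant in progenitors, rose by 1.03 ± 0.28 (adjusted p = 0.00473), with the Med13l female replicate 1 library at 49.7 CPM and the others between 14.0 and 22.2 CPM.

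Of the mitotic genes, the kinetochore motor Cenpe changed with the smallest adjusted p. It was at 1.59, 1.86 and 1.497 CPM in male and 1.10, 1.37 and 1.37 CPM in female Med13l libraries, against 2.82, 3.55 and 3.89 CPM and 2.75, 3.05 and 2.27 CPM in nontargeting ones. The groups did not overlap, and Cenpe fell 2.09-fold (log2 -1.06 ± 0.18, adjusted p = 9.09e-06). The gene lies at chr3:135212537-135273611 (plus strand). Top2a (chr11:98992943-99024189, minus strand) was at 0.918, 0.0775 and 0.624 CPM in male and 1.19, 0.717 and 0.970 CPM in female Med13l libraries, against 1.85, 3.80 and 2.72 CPM and 3.15, 1.42 and 1.40 CPM in nontargeting ones. Here too the groups were apart, with Med13l male replicate 2 far the lowest, and the fall was 3.24-fold (log2 -1.70 ± 0.34, adjusted p = 0.000129).

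The kinase Cdk1 (chr10:69335146-69352938, minus strand) was at 0.141, 0.465 and 0.312 CPM in male and 0.255, 0.326 and 0.422 CPM in female Med13l libraries, and at 0.550, 1.70 and 0.834 CPM and 2.83, 0.410 and 0.669 CPM in nontargeting ones. Its groups overlapped narrowly, and it fell by 1.83 ± 0.57 on the log2 scale (adjusted p = 0.0146). Cyclin B1 (Ccnb1) fell from 0.643 ± 0.315 to 0.255 ± 0.0853 CPM (SD, n = 6 each; log2 -1.29 ± 0.47, adjusted p = 0.038). Mki67 went from 0.877 ± 0.384 to 0.447 ± 0.207 CPM (log2 -1.02 ± 0.38, adjusted p = 0.0409), and the kinetochore protein Cenpf fell by 0.61 ± 0.21 (adjusted p = 0.0259). None of the 6 mitotic kinase and checkpoint genes and neither APC/C gene passed. The summed level of the 19 mitotic genes lay between 24.7 and 28.2 CPM in the 6 Med13l libraries and between 30.1 and 38.4 CPM in the 6 nontargeting ones, and that of the 13 replication genes between 147 and 234 CPM and between 114 and 161 CPM.

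In leaving out each of 12 libraries in turn, the Med13l calls of Mcm2, Mcm6, Pcna, Rrm1, Rrm2, Cenpe and Top2a held each time. Hmgb2 lost its call without Med13l female replicate 1 (adjusted p = 0.0801), and Cdk1 without nontargeting female replicate 1 (0.123, log2 -1.196) or nontargeting male replicate 2 (0.0571). Mcm4 lost it without Med13l male replicate 3 (0.0635), nontargeting female replicate 1 (0.0514) or nontargeting male replicate 1 (0.0550). Mki67 lost it in 8 of 12, all but those without nontargeting female replicate 1, nontargeting male replicate 1, Med13l female replicate 2 and Med13l male replicate 2, with adjusted p over the 12 from 0.0197 to 0.152. Ccnb1 lost it in 7 (Med13l female and male replicates 1 and 2, nontargeting female replicate 1 and male replicates 2 and 3; range 0.0265 to 0.118). Mcm3 also lost it in 7 (Med13l female replicates 1 and 3 and male replicate 3, nontargeting female replicates 1 and 3 and male replicates 1 and 2, range 0.0120 to 0.240). Cenpf and E2f1 each lost it in 6, both without Med13l female replicate 1 or 3, Med13l male replicate 3 or nontargeting male replicate 1. The others were nontargeting female replicate 3 and male replicate 2 for Cenpf (range 0.0121 to 0.0857), and nontargeting female replicate 2 and male replicate 3 for E2f1 (range 0.0105 to 0.144). Mcm3 reached its highest value without Med13l male replicate 3, where the log2 difference was 0.52 in place of 0.84.

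Some markers of other cell types were also called. Their counts stand beside the share of all genes called for Med13l, given above, and are not read as results about these cell types. In the Med13l libraries 2 of 9 neuron markers fell (Syt1, log2 -2.34, and Gad1, -0.62), 1 of 7 radial glia markers rose (Vim, 0.51), and 2 of 4 intermediate progenitor markers rose (Neurog2, 1.06, and Btg2, 0.72). The summed levels were 4453 to 5592 CPM for neuron, 136 to 294 CPM for radial glia and 28.6 to 56.9 CPM for intermediate progenitor markers, of which only the neuron range is apart from that of the nontargeting libraries. Syt1, with a median of 1089 CPM over all libraries (105 to 1499), is among the largest terms of the neuron sum. Its fall thus weighs on that sum, which does not describe the 9 markers alike. The astrocyte markers Aqp4 (-1.15) and Gja1 (-1.08), the oligodendrocyte precursor marker Pdgfra (-1.21) and the fibroblast marker Col1a2 (-1.04) fell, and the summed ranges of these lists overlapped those of the nontargeting libraries. The part of these changes in the results for the 37 genes was not tested. With the no virus libraries as control, Med13l had 17 calls, with Nusap1, Plk1 and Ube2c added and Mcm3 lost (adjusted p = 0.134). Here and below, calls against the no virus libraries are given without the share of all genes called in that setting. They are not read as results about the members.

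**Figure D3:**
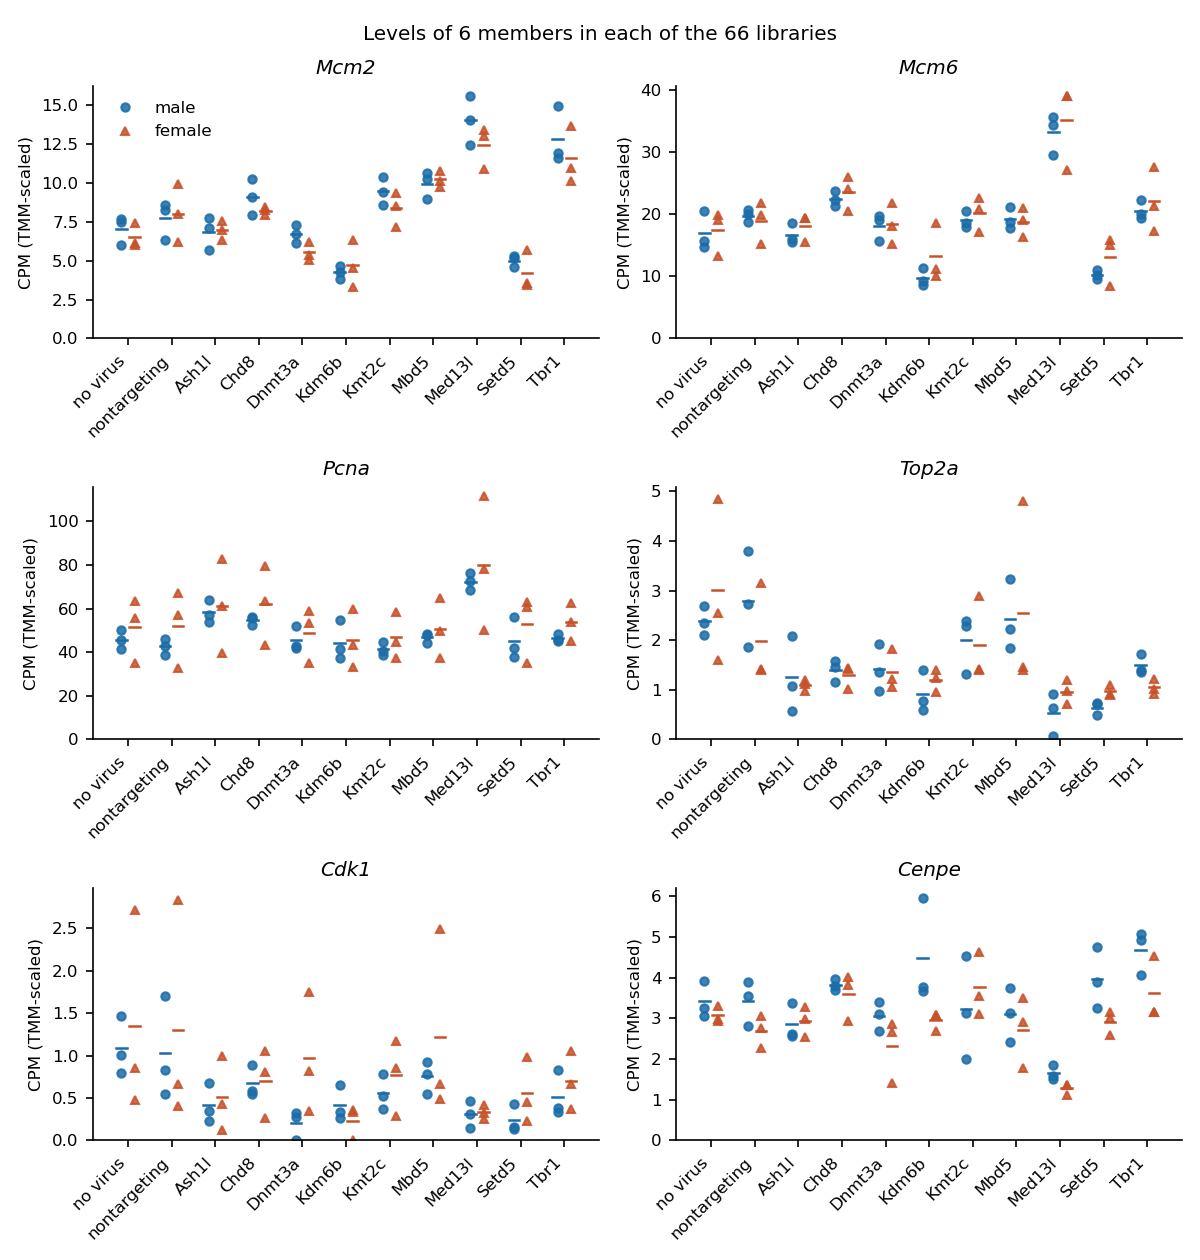
CPM of Mcm2, Mcm6, Pcna, Top2a, Cdk1 and Cenpe in each of the 66 libraries, by treatment and sex. Points are libraries and bars are group means of 3. Med13l libraries lie above the nontargeting ones for Mcm6 (27.1 to 39.1 against 15.2 to 21.8 CPM) and below them for Cenpe (1.10 to 1.86 against 2.27 to 3.89 CPM).

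Knockdown of Chd8, a chromodomain remodeler, raised 6 of the 37 genes and lowered none, where 22.3% of all genes were called and 9.85% were called higher; the share of members called in either direction (16.2%) was thus no larger than that of all genes. The 6 were the helicase subunits Mcm3 and Mcm7, both ribonucleotide reductase subunits, the spindle assembly factor Tpx2 and the mitotic transcription factor Foxm1. The median log2 difference was 0.15 over the 37 genes, 0.25 over the 13 replication genes and 0.08 over the 19 mitotic genes, beside -0.00 over all genes.

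Mcm3 was at 2.32, 3.06 and 3.57 CPM in male and 4.78, 2.15 and 2.30 CPM in female Chd8 libraries, against 0.962, 1.12 and 1.33 CPM and 0.551, 1.51 and 0.802 CPM in nontargeting ones. The groups were apart, and the rise of 2.86-fold (log2 1.52 ± 0.30, adjusted p = 0.000117) was the largest log2 increase among the 31 calls. Tpx2 was at 7.88, 8.37 and 6.92 CPM and 7.26, 8.49 and 9.29 CPM, against 3.64, 4.43 and 5.56 CPM and 3.93, 4.73 and 3.68 CPM. These groups did not overlap, and Tpx2 rose 1.85-fold (log2 0.89 ± 0.18, adjusted p = 0.000123). Rrm2 was at 8.12, 9.00 and 10.9 CPM in male and 14.4, 7.09 and 10.8 CPM in female Chd8 libraries, against 4.57, 7.13 and 5.81 CPM and 6.81, 5.81 and 5.95 CPM. Only Chd8 female replicate 2 fell below the highest control, and the log2 difference was 0.74 ± 0.17 (adjusted p = 0.00115). Rrm1 rose by 0.47 ± 0.13 (adjusted p = 0.00374), so in Chd8 libraries both subunits were higher. Mcm7 rose by 0.58 ± 0.16 (adjusted p = 0.0047) and Foxm1 by 0.78 ± 0.23 (adjusted p = 0.0101).

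All 6 Chd8 calls held without each single library and under the other 7 alternatives, and the highest adjusted p with a library left out was that of Foxm1, 0.0439. Same-numbered libraries deviated together in both sexes, and with the replicate number as a block 13 genes were called: Cdc20 (log2 1.01), Hmgb2 (0.56), Pcna (0.32) and Mcm6 (0.25) were added as higher, and Top2a (-0.76), Ccnb2 (-0.67) and Cdt1 (-0.51) as lower. Here and below, counts of members called with the block are given without the share of all genes called in that fit. They are not read as results about the members. Some markers of other cells were also called. Their counts stand beside the share of all genes called for Chd8, given above, and are not read as results about these cell types. Of the intermediate progenitor markers 2 of 4 rose (Insm1, 1.27, and Btg2, 0.79), 5 of 9 neuron markers fell and 1 rose, and 0 of 7 radial glia markers passed. The summed intermediate progenitor level was 32.5 to 69.7 CPM, against 20.7 to 40.7 CPM in nontargeting libraries, and the radial glia sum 141 to 795 CPM against 179 to 488 CPM, and both pairs of ranges overlap. Of 6 astrocyte markers 1 fell (Gfap, -1.81), and of the 6 tested mural, fibroblast and endothelial markers 1 fell (Dcn, -1.89). The sum over that list was 10.5 to 19.2 CPM, below the 20.7 to 52.1 CPM of the nontargeting libraries with no overlap. None of the tested oligodendrocyte precursor and microglial markers passed. The part of these changes in the Chd8 values was not tested.

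Libraries labelled Setd5, a SET domain protein, had 5 genes lower and none higher, where 5.3% of all genes were called and 3.46% were called lower. They were 3 of the 9 origin genes (Mcm2, Mcm6 and the GINS subunit Gins2), cyclin B1 and Top2a. The median log2 difference over the 9 origin genes was -0.57 and over the 13 replication genes -0.33, with -0.09 over all 37 and -0.01 over all genes.

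In these libraries Mcm2 was at 5.15, 4.59 and 5.30 CPM (male) and 3.43, 3.58 and 5.71 CPM (female), all below the nontargeting range of 6.18 to 9.91 CPM. It fell by 0.78 ± 0.13 on the log2 scale (adjusted p = 0.000107). Mcm6 was at 9.58, 11.01 and 10.2 CPM and 14.998, 8.43 and 15.8 CPM, and only Setd5 female replicate 3 reached above the lowest control. It fell by 0.74 ± 0.14 (adjusted p = 0.000453). Top2a was at 0.486, 0.706 and 0.738 CPM and 0.918, 1.10 and 0.901 CPM, below all controls, and fell 2.97-fold (log2 -1.57 ± 0.34, adjusted p = 0.00209). Ccnb1 was at 0.378, 0.423 and 0.268 CPM in male and 0, 0.115 and 0.150 CPM in female libraries, against 0.343, 1.07 and 0.667 CPM and 0.944, 0.298 and 0.535 CPM in nontargeting ones. The male groups overlapped and the female ones did not, and the log2 difference was -1.97 ± 0.54 (adjusted p = 0.0186). The Setd5 female libraries held 0, 2 and 2 counts of Ccnb1, near the floor, so the size of this fall is uncertain. Gins2 fell by 1.27 ± 0.32 (adjusted p = 0.0106).

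Without the 2 male libraries that went against their labels, all 5 Setd5 calls held: the log2 differences were -0.79 for Mcm2, -0.71 for Mcm6, -1.62 for Gins2, -1.998 for Ccnb1 and -1.48 for Top2a, with adjusted p from 0.000115 to 0.0247. The same 5 genes were called against the no virus libraries. Ccnb1 lost its call without Setd5 female replicate 1 (adjusted p = 0.128), Setd5 male replicate 3 (0.0545), nontargeting female replicate 1 (0.0687) or nontargeting male replicate 2 (0.0669), and Gins2 without Setd5 female replicate 1 (0.0770) or Setd5 male replicate 3 (0.0514). None of the cell type markers passed in the Setd5 comparison, and the neuron markers averaged 6252 CPM beside 6374 CPM in nontargeting libraries.

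Libraries labelled Kdm6b, an H3K27 demethylase, had Mcm2 and Mcm6 lower and no other member called, where 0.966% of all genes were called and 0.607% were called lower. Mcm2 was at 4.31, 4.66 and 3.81 CPM (male) and 3.32, 4.55 and 6.33 CPM (female), and Mcm6 at 11.3, 9.19 and 8.68 CPM and 11.1, 10.1 and 18.6 CPM. Only Kdm6b female replicate 3 reached into the control ranges, for both genes. That library held 36.2 CPM of Kdm6b itself, within the 31.0 to 54.4 CPM of female nontargeting libraries. Kdm6b female replicates 1 and 2 held 10.7 and 21.1 CPM. The part of this in the values of Mcm2 and Mcm6 was not tested. Mcm2 fell by 0.80 ± 0.13 (adjusted p = 0.000437) and Mcm6 by 0.76 ± 0.14 (adjusted p = 0.00173). Without the 2 male libraries the differences were -0.81 and -0.83 (adjusted p = 0.000468 and 0.000706). Top2a was lower in all 6 Kdm6b libraries than in any nontargeting library (log2 -1.16) but missed the threshold (adjusted p = 0.0678). It was at -1.11 without the 2 male libraries (adjusted p = 0.127), and it was called against the no virus libraries (-1.34, adjusted p = 0.0266), as were Mcm2 (-0.59) and Mcm6 (-0.60). Over the 37 genes the median was -0.13, beside 0.01 over all genes, and 9 of the 37 had an unadjusted p under 0.05. Here and below, counts at an unadjusted p are given without the share of all genes. They are not read as results about the genes listed. Of the neuron markers Slc17a7 fell (log2 -0.69), and its part was not tested.

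Knockdown of Tbr1, a transcription factor of deep-layer cortical neurons, raised Mcm2 and called no other member, where 1.33% of all genes were called and 0.248% were called higher. Mcm2 was at 11.6, 14.96 and 11.9 CPM in male and 13.7, 10.1 and 10.995 CPM in female Tbr1 libraries, all above the highest nontargeting library at 9.91 CPM. The rise was 1.55-fold (log2 0.63 ± 0.13, adjusted p = 0.00216), and it held without each library in turn. Same-numbered libraries deviated together, and with the replicate block 3 members were called: Mcm2 (0.64), Hmgb2 (0.83) and Top2a (-0.88).

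Knockdown of Ash1l, an H3K36 methyltransferase, lowered Top2a alone, where 6.16% of all genes were called and 3.49% were called lower. Top2a was at 1.08, 0.576 and 2.09 CPM in male and 1.199, 0.977 and 1.11 CPM in female Ash1l libraries, so that Ash1l male replicate 3 overlapped the controls (1.40 to 3.80 CPM). The log2 difference of -1.003 ± 0.32 was at the edge of the threshold (adjusted p = 0.0498). The call was lost in 8 of 12 comparisons with a library left out: each of the 3 Ash1l female libraries, Ash1l male replicates 1 and 2, nontargeting female replicate 1 and nontargeting male replicates 2 and 3. The adjusted p over the 12 ran from 0.0141 to 0.201, and it was 0.0520 without the 2 male libraries that went against their labels. Against the no virus libraries, Top2a (-1.18), Mki67 (-1.20), Cenpf (-0.67) and the APC/C ubiquitin-conjugating enzyme Ube2c (-1.26) were called lower. Among the neuron markers Slc17a6 rose (0.95) and Gad1 (-1.28) and Gad2 (-0.47) fell, and their part was not tested.

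Knockdown of the DNA methyltransferase Dnmt3a lowered the helicase subunit Mcm5 alone, where 1.4% of all genes were called and 0.923% were called lower. Mcm5 was at 1.97, 1.58 and 2.11 CPM in male and 2.25, 1.31 and 2.57 CPM in female Dnmt3a libraries, against 2.88, 3.21 and 3.45 CPM and 3.46, 3.28 and 2.47 CPM. Only female replicate 3 of each group overlapped, and the log2 difference was -0.68 ± 0.19 (adjusted p = 0.0464). This call was lost in 10 of 12 comparisons with a library left out, all but those without Dnmt3a female replicate 3 or nontargeting female replicate 3 (adjusted p over the 12 from 0.0305 to 0.140), and it was 0.196 against the no virus libraries. With the replicate block, which the libraries' joint deviations bear out, Mcm5 (-0.70), Cdk1 (-1.31) and the licensing factor Cdt1 (-0.98) were called. Among the markers the neuronal gene Gad2 fell (-0.57) and the astrocyte gene Gfap rose (2.14), and their part was not tested.

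Knockdown of Kmt2c, an H3K4 methyltransferase, and of Mbd5 called no member, where 0.694% and 0.663% of all genes were called. For Kmt2c 3 members had an unadjusted p under 0.05 in edgeR and 1 was called by DESeq2. The nearest was the midzone protein Prc1 (log2 -0.55, adjusted p = 0.0910), which was lower in every Kmt2c library than in any control, and which passed with the replicate block. For Mbd5 3 members had an unadjusted p under 0.05, and DESeq2 called 0. The median differences over the 37 genes were -0.12 and 0.06.

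The landmark genes were followed across all targets, in the order Med13l, Chd8, Setd5, Kdm6b, Tbr1, Ash1l, Dnmt3a, Kmt2c and Mbd5, as log2 differences in the mean of sexes. Top2a, made in S and G2 phase, differed by -1.70, -0.80, -1.57, -1.16, -0.90, -1.003, -0.75, -0.27 and 0.08. For Cdk1 the values were -1.83, -0.74, -1.62, -1.86, -0.93, -1.31, -1.38, -0.81 and -0.28, and the Med13l value alone passed. Ccnb1 was at -1.29, -0.54, -1.97, -1.32, -0.34, -0.33, -0.55, -0.39 and -0.47. Without the 2 male libraries that went against their labels, Cdk1 was at -1.51 for Setd5 and -2.09 for Kdm6b, and Ccnb1 at -1.35 for Kdm6b, with none of the 3 called. Cdk1 and Ccnb1 were thus below 0 for all 9 targets and Top2a for 8, a description only, since all 9 share 1 set of controls and that set holds the nontargeting female replicate 1 library with the highest Cdk1 (2.83 CPM). Against the no virus libraries, Cdk1, Ccnb1, Top2a, Mki67, Ccnb2, Cenpf and Ube2c were below 0 for all 9. This too is a description only, since that shared control set also holds a high library. No virus female replicate 1 had the highest Ccnb1 of all 66 libraries (2.18 CPM). Its summed mitotic level was 50.7 CPM, beside 33.6 to 37.9 CPM in the other no virus libraries.

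Mki67, found in cells in all phases of the cycle, differed by -1.02, -0.08, 0.16, -0.08, -0.38, -0.66, -0.68, -0.30 and -0.04 in the same order. Its value in the Setd5 libraries lay above 0 while Top2a, Ccnb1 and Mcm2 fell there. The S phase genes differed in this. Mcm5 was below 0 for all 9 targets (6 of 9 against the no virus libraries) and E2f1 above 0 for 8, while Mcm2 was at 0.75, 0.14, -0.78, -0.80, 0.63, -0.19, -0.37, 0.18 and 0.36. Pcna was at 0.69, 0.31, 0.05, -0.07, 0.08, 0.34, -0.00, -0.10 and 0.04, and E2f1 was at 0.64, 0.15, 0.01, -0.23, 0.07, 0.29, 0.02, 0.31 and 0.46. The lower Mcm2 and Mcm6 of the Setd5 and Kdm6b libraries thus stood beside Pcna and E2f1 values with no call.

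In the main comparisons, with no alternative setting, no knockdown moved 17 of the 37 genes past the threshold. They were the loaders Cdt1 and Cdc6, thymidylate synthase Tyms, cyclins Ccna2 and Ccnb2, all 6 kinase and checkpoint genes (Bub1, Bub1b, Aurka, Aurkb, Plk1 and Melk), the passenger proteins Birc5 and Cdca8, the spindle proteins Nusap1 and Prc1, and the APC/C genes Cdc20 and Ube2c. The smallest adjusted p among them in the mean of sexes was 0.0684 (Nusap1). Some of them passed under alternatives. With the replicate block these included Cdc20, Ccnb2 and Cdt1 for Chd8, Cdt1 for Dnmt3a and Prc1 for Kmt2c. Against the no virus libraries they included Nusap1, Plk1 and Ube2c for Med13l and Ube2c for Ash1l. Ccnb2 also passed for Chd8 without the 2 male libraries that went against their labels (edgeR adjusted p = 0.0481). Tyms stayed within -0.25 to 0.24 on the log2 scale over the 9 targets with a median of 60 counts per library. Aurkb spread widest, from -2.03 to 1.36, with a median of 4 counts, at which changes of this size were not detectable.

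Within each sex the smaller groups (3 against 3) gave 20 calls over 18 comparisons, and each of the 20 was also called in the mean of sexes. For Med13l, 4 genes were called in males (8.06% of all genes called, 3.14% higher and 4.92% lower), Mcm2 (0.86), Mcm6 (0.75), Cenpe (-1.05) and Top2a (-2.35), and 5 in females (10.2%, 4.74% higher and 5.49% lower), Mcm2 (0.64), Mcm6 (0.89), Rrm1 (-0.55), Cenpe (-1.07) and Hmgb2 (1.21). In females the replicate block raised the 5 to 10. For Chd8, 3 genes were called in males (9.82% of all genes, 3.64% higher), Mcm3 (1.38), Rrm1 (0.56) and Tpx2 (0.76), where the block gave 9, and 3 in females (9.33%, 3.34% higher), Mcm3 (1.65), Rrm2 (0.80) and Tpx2 (1.02). In libraries labelled Setd5, Mcm6 (-0.95) was called in males (0.0557% of all genes, 0.0496% lower), where the block gave 3, and Mcm2 (-0.93) and Ccnb1 (-2.98) in females (3.12%, 2.14% lower), where it gave 5. In male libraries labelled Kdm6b, Mcm2 (-0.86) and Mcm6 (-1.03) were called (0.0867% of all genes, 0.0557% lower). The targeted gene itself did not pass in male Setd5 or male Kdm6b libraries. Without the 2 libraries that went against their labels, Mcm6 was called in Kdm6b males (-1.14) and Mcm2 was not (adjusted p = 0.0690), and 2 members were called in Setd5 males.

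The calls of 1 sex rested on few libraries. Of the 20, 6 held without each library in turn: Cenpe in both sexes, Mcm2 and Top2a in males and Mcm6 in females for Med13l, and Tpx2 in females for Chd8. The others lost the call in 1 to 5 of 6 comparisons, with the highest adjusted p, 0.677, for Hmgb2 in Med13l females without Med13l female replicate 1. Ccnb1 in Setd5 females reached 0.410 without Setd5 female replicate 1, the library at 0 counts. With halved counts this Ccnb1 call was lost too (edgeR adjusted p = 0.0643). In the other comparisons no member was called. In males 1.98% of all genes were called for Ash1l, 0.111% for Dnmt3a, 0.0867% for Kmt2c, 0.0619% for Mbd5 and 0.217% for Tbr1, with 1 to 3 members at an unadjusted p under 0.05 each and DESeq2 calling 1 for Tbr1 and 0 for the others. In females 1.1% were called for Ash1l, 0.118% for Dnmt3a, 0% for Kdm6b, 0.0991% for Kmt2c, 0.0557% for Mbd5 and 0.0619% for Tbr1, with 0 to 4 members at an unadjusted p under 0.05 and none by DESeq2. With the block, which the libraries' deviations bear out there, 1 member was called for Dnmt3a in each sex and 1 for Tbr1 in males.

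Male and female effects come from separate libraries and can be set against each other. Over the 37 genes the correlation of the male with the female log2 difference was 0.80 for Med13l, with 28 of 37 on the same side of 0, beside 0.57 and 80.5% over all tested genes. It was 0.76 with 27 of 37 for Chd8 (0.62 and 81.8% over all genes), 0.74 with 30 of 37 for Ash1l (0.42 and 74.3%) and 0.64 with 21 of 37 for Setd5 (0.25 and 69.4%). The lowest were 0.26 for Dnmt3a and for Mbd5, with 22 and 19 of 37. These correlations run across genes, which are not independent replicates, and are descriptions. No member passed the test of a male minus female difference in effect for any target, where 0.0186% of all genes were called for Setd5 and 0% for the others, and DESeq2 called 0. An unadjusted p under 0.05 was reached by 1 member each for Setd5, Kdm6b and Tbr1. The smallest was that of Tpx2 for Setd5, at a log2 difference of -0.37 in males and 0.61 in females.

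**Figure D4:**
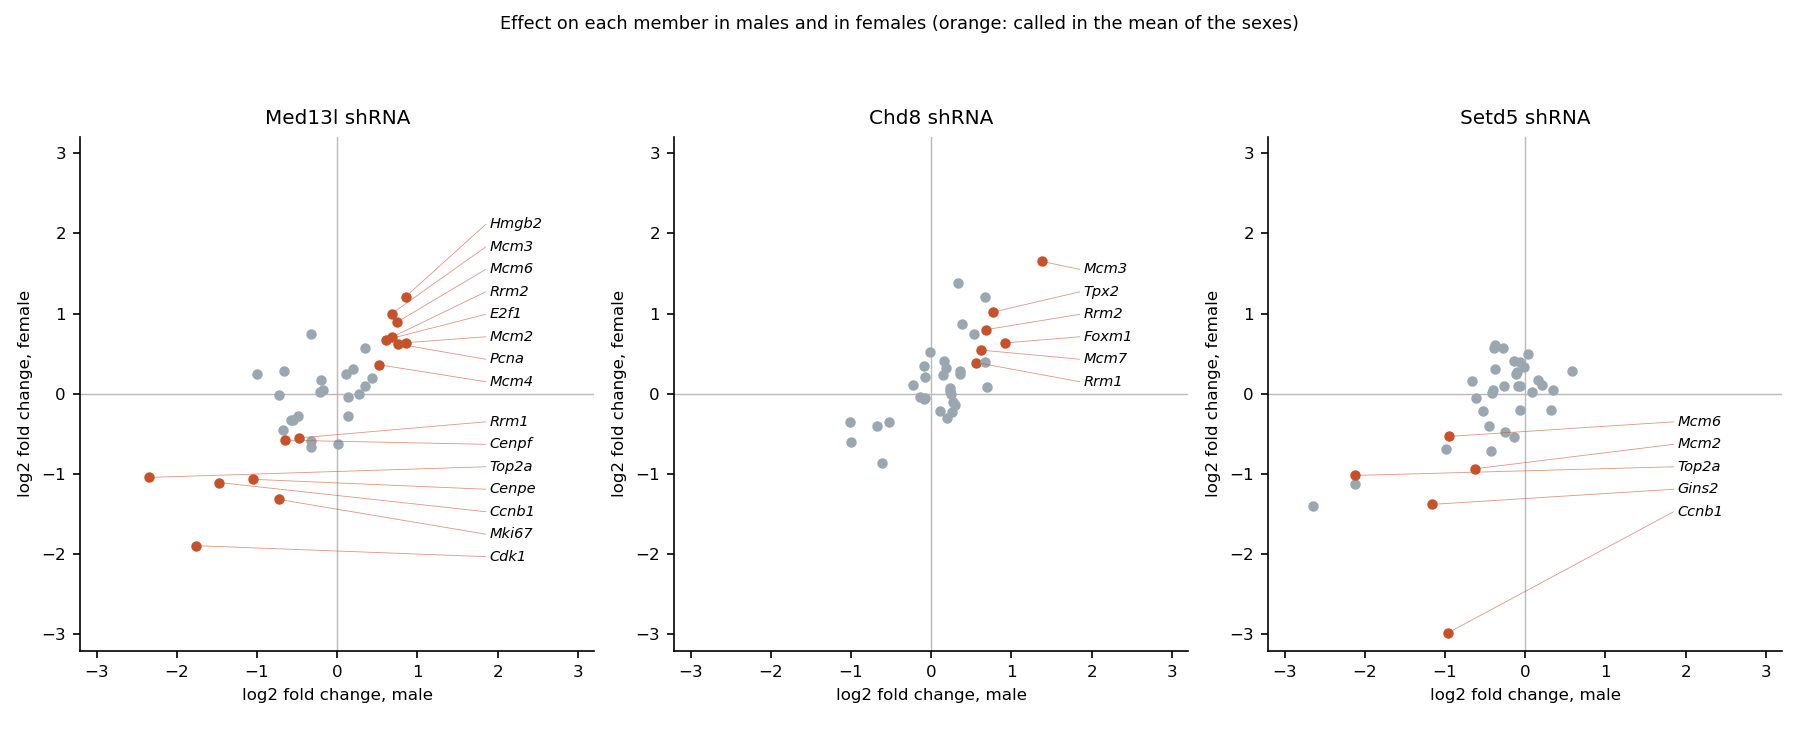
Male against female log2 difference from nontargeting for the 37 genes, for Med13l, Chd8 and Setd5. Each point is a gene, orange points were called in the mean of sexes, and the correlations across genes are 0.80, 0.76 and 0.64. Mcm2, Mcm6, Cenpe and Top2a lie far from 0 in both sexes for Med13l.

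Infection with the nontargeting virus called none of the 37 genes against no virus (0% of all genes in either sex and in their mean), with 1 member at an unadjusted p under 0.05 (Ube2c, log2 -0.74) and 0 by DESeq2. The landmark differences were 0.21 for Mcm2, -0.04 for Pcna, -0.02 for E2f1, -0.31 for Ccnb1, -0.06 for Cdk1, -0.53 for Mki67 and -0.18 for Top2a. No member was called between males and females either, in nontargeting or in no virus libraries, where 0.0434% of all genes were called in each. There 0 and 1 members had an unadjusted p under 0.05, and DESeq2 called 0.

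Libraries of 1 group also differed by replicate number. In a fit with the replicate number within each sex, 19 of the 37 genes differed between numbers in females, where 72.6% of all genes did, and 6 in males, where 28.7% did. The share of members was below that of all genes in both sexes. Female replicate 2 stood apart: relative to replicate 1 the log2 difference was -0.84 ± 0.06 for Pcna, -2.15 ± 0.30 for Cdk1, -1.05 for Hmgb2, -0.54 for Mcm7 and E2f1, and 1.28 ± 0.14 for Cdt1. The female medians over 11 groups were 63.4, 37.3 and 55.7 CPM for Pcna in replicates 1, 2 and 3, 19.9, 15.5 and 20.9 CPM for Mcm6, and 1.05, 0.326 and 0.668 CPM for Cdk1. Replicate 2 was the lowest of the 3 in 11 of 11 female groups for Pcna, Mcm6, Mcm7 and Hmgb2, and in 10 of 11 for E2f1, Cdk1 and Gins2.

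The loading factor Cdt1, which is made in G1 and destroyed in S phase, went the other way, and it was not alone. Cdt1 was at 1.69, 3.72 and 2.25 CPM in the 3 female replicate numbers. Replicate 2 was its lowest in 0 of 11 female groups and in 11 of 11 male groups. Aurka (medians 2.20, 2.81 and 1.81 CPM) and Tpx2 (3.88, 4.83 and 4.13 CPM) also had replicate 2 lowest in 0 of 11 female groups. For Foxm1, Rrm1, Cdc20 and Melk it was lowest in 1 of 11. In males the 6 called genes were E2f1 (0.66 higher in replicate 3 than in replicate 1), Bub1b, Mcm4, Mcm3, Cdt1 and Mcm7. With the nontargeting and no virus libraries alone, 11 of 36 tested members were called in females (50.0% of all genes) and 0 of 36 in males (1.77%). Each number was present once in each group, so the replicate number is not confounded with the knockdowns. What a replicate number stands for is not given in the labels.

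**Figure D5:**
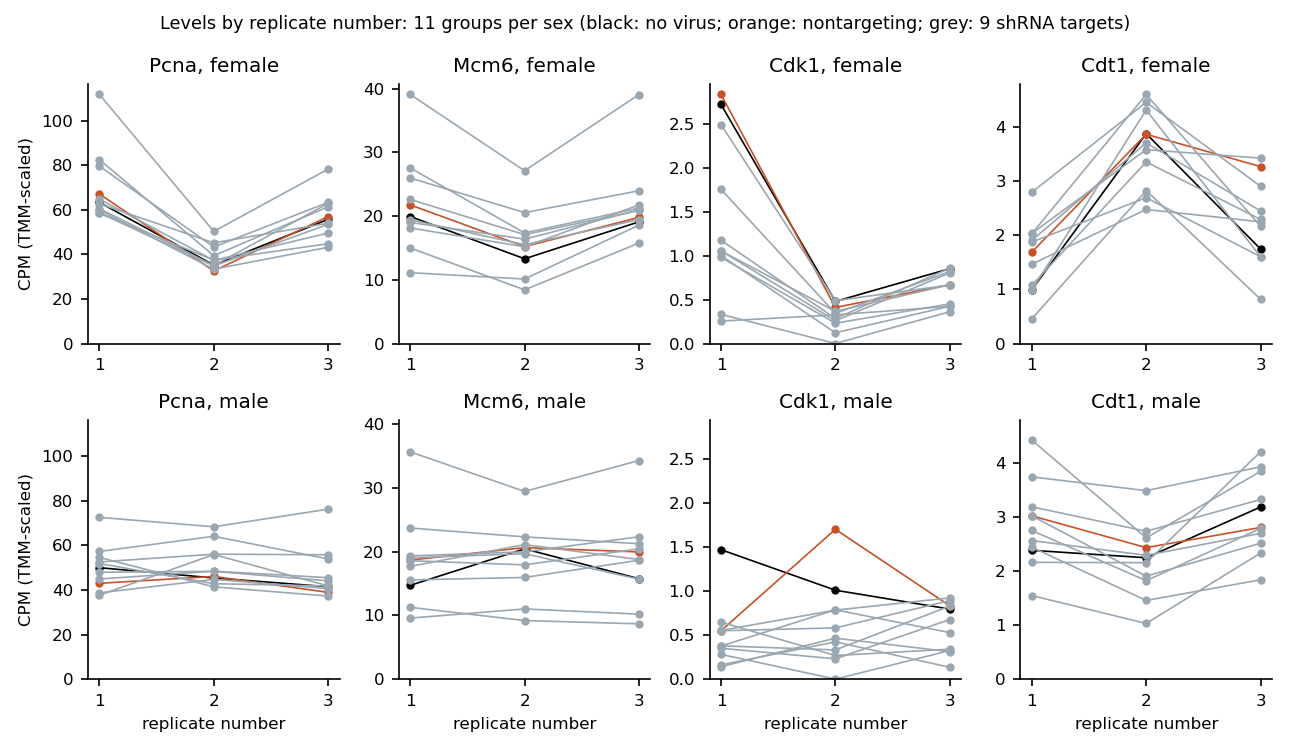
CPM of Pcna, Mcm6, Cdk1 and Cdt1 by replicate number, female and male panels, 1 line for each of 11 groups. In females replicate 2 is the lowest of the 3 for Pcna and Mcm6 in all 11 groups, with a median of 37.3 CPM for Pcna against 63.4 and 55.7 CPM, and Cdt1 runs opposite.

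With each group's mean removed, the genes did not vary as 1 block over the 66 libraries. The median correlation over the 666 pairs was 0.058, and 396 pairs lay above 0. The highest values were those of Pcna with Hmgb2 (0.75), Mcm7 with E2f1 (0.70), Mcm6 with Hmgb2 (0.70) and Pcna with Cdk1 (0.69). The lowest was as large in size: Cdt1 with Pcna gave -0.75 over all libraries and -0.83 in females, where Cdt1 with Cdk1 also gave -0.83. Pcna with Aurka gave -0.59 over all libraries. Mcm6 with Pcna gave 0.68 over all libraries, 0.74 in females and 0.33 in males, and Mcm7 with Pcna gave 0.85 in females. All pairs share library depth and the replicate number, so these values are descriptions.

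A further 81 cell cycle and replication genes outside the 37, all tested, showed how the wider pathway stood. In Chd8 libraries 19 were higher and 10 lower (35.8%, against 22.3% of all genes), led by Ccnd1, the G1 cyclin D1 (log2 -2.30 ± 0.29, adjusted p = 2.54e-08), and the single-strand binding subunit Rpa2 (0.71 ± 0.11, adjusted p = 2.44e-06). Of 7 CDK inhibitor genes 5 fell: Cdkn2a (-1.46), Cdkn2b (-1.02), Cdkn1c (-0.93), Cdkn1a (-0.50) and Cdkn2d (-0.28). Of 5 checkpoint genes 4 rose, Ttk (1.37), Chek2 (0.77), Mad2l1 (0.76) and Bub3 (0.19). In addition 6 of 23 mitosis genes rose, and of 23 replication genes 5 rose and 1 fell.

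In Med13l libraries 15 of the 81 genes were higher and 5 lower (24.7%, against 24.1% of all genes), led by the E2F family members E2f3 (-0.84 ± 0.13, adjusted p = 1.85e-06) and E2f6 (0.85 ± 0.14, adjusted p = 4.27e-06). The G1 genes split: the E cyclins Ccne1 (0.68) and Ccne2 (1.72) and the kinase Cdk4 (0.43) rose, and the D cyclins Ccnd1 (-0.89) and Ccnd3 (-1.33) fell, 5 of 8 in all. Of 23 replication genes 5 rose, and of 23 mitosis genes only the centromeric histone Cenpa (0.89) passed. The CDK inhibitor Cdkn1a rose (0.75) and Cdkn2b fell (-1.17). In Setd5 libraries 1 of the 81 rose and 3 fell, with E2f5 (-0.91, adjusted p = 0.00717) and the polymerase subunit Pola1 (-0.66, adjusted p = 0.0130) first, then the kinase Wee1 (-1.10), and E2f6 the gene that rose (0.43). In Ash1l libraries 2 rose, the clamp loader subunit Rfc5 (0.45, adjusted p = 0.0289) and E2f5 (0.68, adjusted p = 0.0427), and the APC/C activator Fzr1 fell (-0.36). In Dnmt3a libraries E2f6 (0.50, adjusted p = 0.0441) and Cenpa (0.95, adjusted p = 0.0493) rose. None of the 81 was called by edgeR in the Kdm6b, Kmt2c, Mbd5 and Tbr1 comparisons, where 7, 6, 7 and 9 had an unadjusted p under 0.05.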

How the data were processed

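The data are RNA-seq counts from 66 libraries of cultured mouse neurons. Reads were aligned to mm10 with STAR and counted with featureCounts, per the submitters' processing notes; versions, annotation, strand setting and the handling of reads that match several places are not given in the sources used here. The deposited table holds raw counts per gene, not normalized by the authors. Of values from 1 to 20 only 26.7% were odd, against 49.1% of values of at least 1000, as when both reads of a fragment are counted, and halved counts were an alternative. Columns headed Luc were read as nontargeting, and 6 of 72 library columns match no sample in the labels and were not used. Rows without a symbol (18483 of 48716; 0.690% to 1.41% of counts) were left out, and 149 rows that repeat a symbol were summed.

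The members and lists were chosen with earlier results of these data known. Counts were tested with edgeR 4.0.16 (R 4.3.3; TMM, filterByExpr, robust quasi-likelihood F test, 1 mean per group over all 66 libraries), with Benjamini-Hochberg adjustment over 16145 genes and a threshold of 0.05. Effects are log2 fold changes with SE, and CPM uses TMM library sizes (factors 0.874 to 1.06). Every member past the threshold is named, with Mki67, Top2a, Cdk1, Ccnb1, Mcm2, Pcna and E2f1 described throughout. Per-library values are given for up to 3 members per target with the smallest adjusted p, and of the other pathway genes up to 2 per target are named. Pathway genes and markers named beyond these, Prc1 in the Kmt2c comparison and Top2a in the Kdm6b comparison were chosen after their values were seen. On counts simulated for the Chd8 mean of sexes (15671 genes) the test recovered 77 of 100 genes changed by 1 on the log2 scale and 93 of 100 changed by 2, with 4 false calls. The simulated counts held no difference by replicate number and no spread of single genes beyond the fitted trend. These rates may therefore be better than those in the data. Replicate numbers come from the labels. They were taken to pair libraries where each same-numbered knockdown and nontargeting library correlated above 0.1 in their deviations from the group means, which held in both sexes for Chd8, Dnmt3a, Kmt2c, Mbd5, Setd5 and Tbr1 (lowest 0.104), in females also for Ash1l and Med13l. Alternatives were a replicate block, DESeq2 1.42.0, RLE scaling, no filter, halved counts, no virus as control, each sex or only the compared libraries fitted, leaving out the 2 male libraries that went against their labels, and leaving out each library in turn. Gene positions and exon lengths are GENCODE M21 on mm10, and promoter sequences are RefSeq's for GRCm38.p6.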

Additional observations from a re-analysis of the deposited data

How the results depend on the processing

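Over all alternatives no call changed direction. Of the 31 calls in the mean of sexes 26 held in all 7 alternatives other than leaving out a library, and 19 held with each library left out. The 5 that did not hold were low-count or near the threshold: Mcm3, Ccnb1 and Mki67 for Med13l, Mcm5 for Dnmt3a and Top2a for Ash1l. Counts of called members moved by more than 1.5 times as follows, and the cause was not tested. They are given without the share of all genes called in each setting, so they are not read as results about the members.

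With the replicate block, the count became 3 (from 0) for Ash1l, 9 (from 3) for Chd8, 1 (from 0) for Dnmt3a, 11 (from 4) for Med13l, 3 (from 1) for Setd5 and 1 (from 0) for Tbr1 in males. In females it became 1 (from 0) for Dnmt3a, 10 (from 5) for Med13l and 5 (from 2) for Setd5. In the mean of sexes it became 4 (from 1) for Ash1l, 13 (from 6) for Chd8, 3 (from 1) for Dnmt3a, 6 (from 2) for Kdm6b, 1 (from 0) for Kmt2c and 3 (from 1) for Tbr1. Between males and females it gave 1 nontargeting and 3 no virus members (from 0 each). The pairing did not hold for Ash1l and Med13l males, where the lowest correlations were -0.108 and 0.019, or for Kdm6b in either sex.

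RLE scaling left 0 for Ash1l and 0 for Dnmt3a in the mean of sexes, as did no filter, which also gave 1 for Kdm6b males, 3 for Med13l females and 1 for Setd5 females. Halved counts gave 1 for Tbr1 males and 1 for Setd5 females. With no virus as control the counts were 0 for Kdm6b, 7 for Med13l, 0 for Setd5 and 1 for Tbr1 in males, 1 for Chd8, 8 for Med13l and 1 for Tbr1 in females, and 4 for Ash1l, 0 for Dnmt3a, 1 for Kmt2c and 1 for Mbd5 in the mean of sexes. Without the 2 male libraries they were 5 for Chd8, 1 for Kdm6b and 2 for Setd5 in males and 0 for Ash1l in the mean of sexes. With each sex fitted separately they were 1 for Ash1l, 7 for Chd8, 10 for Med13l, 2 for Setd5 and 1 for Tbr1 in males, and 2 for Med13l and 1 for Setd5 in females. With only the libraries compared they were 1 for Ash1l, 9 for Chd8, 0 for Kdm6b, 10 for Med13l and 0 for Setd5 in males, and 0 for Chd8, Med13l and Setd5 in females. DESeq2 gave 6 for Chd8 males, 1 for Tbr1 males, and 2 for Ash1l and 1 for Kmt2c in the mean of sexes. The replicate number called 11 (from 19) in females and 0 (from 6) in males with the control libraries alone.

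With each library left out in turn, the counts in males ranged from 0 to 1 for Chd8, 0 to 2 for Kdm6b, 3 to 4 for Med13l and 0 to 1 for Setd5. In females they ranged from 1 to 4 for Chd8, 0 to 1 for Dnmt3a, 0 to 1 for Kdm6b, 2 to 7 for Med13l and 0 to 2 for Setd5. In the mean of sexes they ranged from 0 to 2 for Ash1l, 6 to 9 for Chd8, 0 to 1 for Dnmt3a, 2 to 3 for Kdm6b, 9 to 14 for Med13l, 3 to 6 for Setd5 and 1 to 1 for Tbr1, and were 0 in every other comparison of knockdowns, sexes, their difference or infection. Depth limits the 11 members under 1 CPM, whose changes were detectable only when large.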
